A study of Gallus gallus with 53 samples.

Results

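The early peaking BCR-induced probe sets of DT40 cells, a chicken B cell line, were 53 of the 38361 probe sets on the Affymetrix GeneChip Chicken Genome Array. They were chosen by the wild type (WT) response to 10 μg/ml anti-IgM, after a limit on mean intensity. A member had a geometric mean intensity above 2.07 over all 53 columns of the deposited table, which 26866 probe sets passed, and its largest change against the unstimulated WT column was a rise of at least 1 log2 unit (2-fold) that fell at 15, 30 or 45 min. Another 153 probe sets met the same limits with their largest change at 60 or 90 min and are called the late set below. The row IDs of the table do not pair with its values, so no gene could be named and the B cell identity could not be checked against markers. Members are numbered P1 to P53 by the size of that largest change, P1 having the largest.

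The measurements covered 3 cell conditions. IKKβSA cells carry a knock-in of the S176/181A allele of IKKβ, in which 2 serines of the activation loop are replaced by alanine, so that the kinase is inactive. WT + Inh cells are wild type cells that were treated with the MEK inhibitor U0126 for 30 min before stimulation, at 5 mM in the sample labels and 5 μM in the study's methods. The methods can also be read as giving the inhibitor to IKKβSA cells, which the labels do not. WT cells received neither. IKKβSA and WT + Inh cells were stimulated through the BCR with 10 μg/ml of the antibody M4 (anti-IgM) or through CD40 with 6 μg/ml CD40 ligand (CD40L). WT cells received anti-IgM at 0.1, 1 or 10 μg/ml or CD40L at 1, 3 or 6 μg/ml. Each of these 10 courses has 1 column at 15, 30, 45, 60 and 90 min, and each cell condition has 1 unstimulated column (0 min). That gives 11 IKKβSA, 11 WT + Inh and 31 WT columns.

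Genes that rise within minutes of receptor engagement and then decline are known as immediate early or early response genes. In B cells they are transcribed without new protein synthesis, largely through MEK and ERK, which act on serum response factor and its partners, and through IKK, which frees NF-κB from its IκB inhibitors. Engagement of the BCR by antigen, or by anti-IgM in its place, activates both kinases, and CD40, a TNF receptor family member that is bound by CD40L on T cells, activates them too. Several products of this class, such as phosphatases that act on ERK and deubiquitinating enzymes that act on the IKK pathway, are feedback regulators of the kinases that induce them.

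The authors deposited RMA intensities on a linear scale, and each column combines 2 biological replicates, so the table holds no spread between replicates and each condition and time has 1 value. Column medians lay between 2.74 and 2.95, with the lowest in the unstimulated WT column. Changes are given as log2 differences from the 0 min column of the same cells. In the tests of courses, limma fitted a smooth curve over time to each course and took the error from how far columns lay off the curves. Each p-value from these tests covers the whole curve, and not the change at a single time. The other tests fitted no curve. They took the error from how far columns lay off a model with a term for each time and for dose or cell condition. A member was called at a Benjamini-Hochberg adjusted p under 0.05 over the 26866 probe sets. The p-values therefore set an effect against the scatter of single columns around these fits, and not against how far cultures differ. Unstimulated cells were measured at 0 min only, so drift with time in culture and a response cannot be told apart within a course.

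In the WT course that chose them, 1 member (P32) was highest at 15 min, 21 were highest at 30 min and 31 at 45 min. The largest changes lay between 1.00 (P53) and 5.35 (P1) with a median of 1.67, or 3.19-fold, and 19 members reached 4-fold and 7 reached 8-fold. These values describe the choice and were not tested. The limit of 1 cut through a continuous range. P53 had an intensity of 30.9 at 0 min and 62.0 at 45 min and P52 had 139.8 and 280.8, changes of 1.00 and 1.01. The nearest probe sets outside had 61.9 at 0 min and 123.3 at 15 min, and 2.27 at 0 min and 4.50 at 45 min, both a change of 0.99, and 16 probe sets lay between 0.9 and 1. Before stimulation most members were brighter than the median probe set. Their WT 0 min intensities lay between 1.86 and 258.2 with a median of 16.8, against 4.90 over all probe sets tested, and 8 members were under 5.

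**Figure D1:**
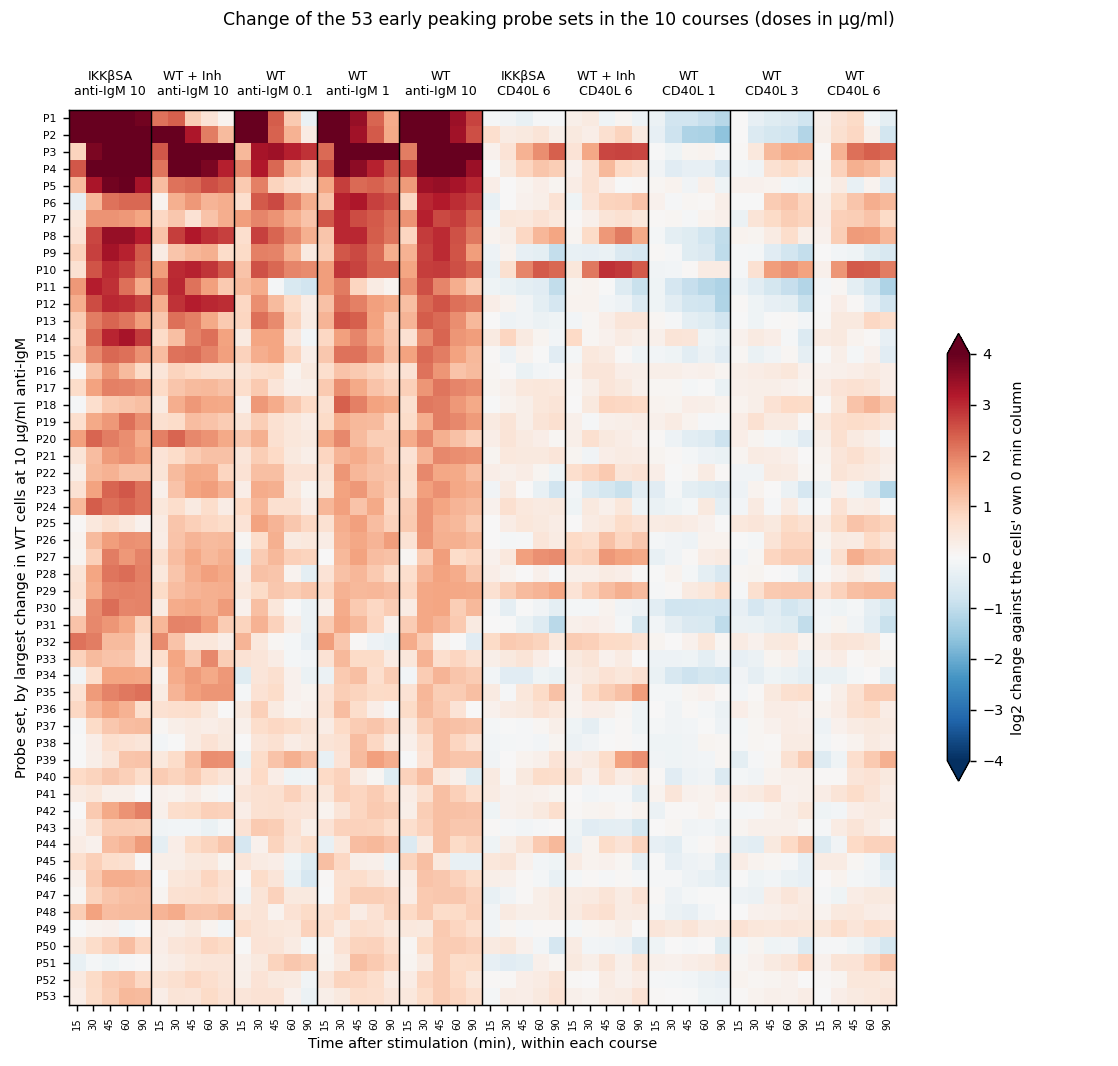
Change of each of the 53 members (rows, P1 at the top) against the 0 min column of the same cells, on the log2 scale, in the 10 courses with times from 15 to 90 min (columns); colours are capped at 4 in either direction. The members chosen in WT cells at 10 μg/ml anti-IgM are red in most columns of all 5 anti-IgM courses, while in the CD40L courses few rows, P3, P10 and P27 among them, are more than pale.

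The height of the peak and its duration varied widely among the members. P1 had an intensity of 6.53 at 0 min in WT cells and 215.2, 266.3, 136.3, 69.6 and 42.2 at 15, 30, 45, 60 and 90 min of 10 μg/ml anti-IgM. P2 had 38.6 at 0 min and 1034, 1282, 723, 399 and 230.7 at the same times, the brightest member of the set. Both were near their peak within 15 min, were highest at 30 min and declined at every time after that. At 90 min 50.3% of the largest log2 change was left for P1 and 51.04% for P2. P3 was slower, with 18.0 at 0 min and 75.04, 365, 497, 471 and 461 afterwards, and it kept 97.7% at 90 min. P32, the member that peaked at 15 min, had 23.7 at 0 min and 66.4, 48.2, 25.9, 23.3 and 17.2 afterwards, which is below its starting level at 90 min.

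Over all 53 members the median share of the largest change left at 90 min was 72.1%. For 10 members under 50% was left, for 21 between 50% and 75%, and for 22 more than 75%. The lowest shares were −40.8% (P40), −31.4% (P32) and −26.0% (P45), and the highest after P3 were 95.5% (P42) and 95.4% (P29). The order of the times is not firm for every member. The standard error (SE) of a difference between 2 columns, taken from the deviations around the curves, lay between 0.08 and 0.59 with a median of 0.21. By the choice of the members every peak lay above both later columns, which raises the gap between them. The gaps are therefore described without a test. The peak stood above both later columns by more than 2 such errors in 17 members and within 1 error of the higher of them in 19. P3, with a peak 0.08 above its 60 min column and an SE of 0.32, belongs to those 19, so its place among the early peaking probe sets rests on a difference smaller than its error.

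The next largest changes in WT cells at 10 μg/ml belonged to P4 to P10. P4 had 20.5 at 0 min and 133.1, 343, 363, 314 and 221 at 15 to 90 min, P5 had 9.59 and then 31.1, 101.4, 106.2, 93.5 and 76.8, and P6 had 6.96 and then 12.4, 55.9, 63.3, 53.4 and 46.8. P7 had 3.76 at 0 min and then 13.0, 32.5, 23.4, 25.3 and 19.3, and P8 had 10.3 and then 18.6, 72.1, 81.9, 60.0 and 44.3. P9 had 19.9 at 0 min and then 52.2, 129.6, 157.1, 112.9 and 63.1, and P10 had 119.3 and then 353, 819, 828, 708 and 593. Of these 7, P7 was highest at 30 min and the other members at 45 min, and each was still above its 0 min column at 90 min.

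**Figure D2:**
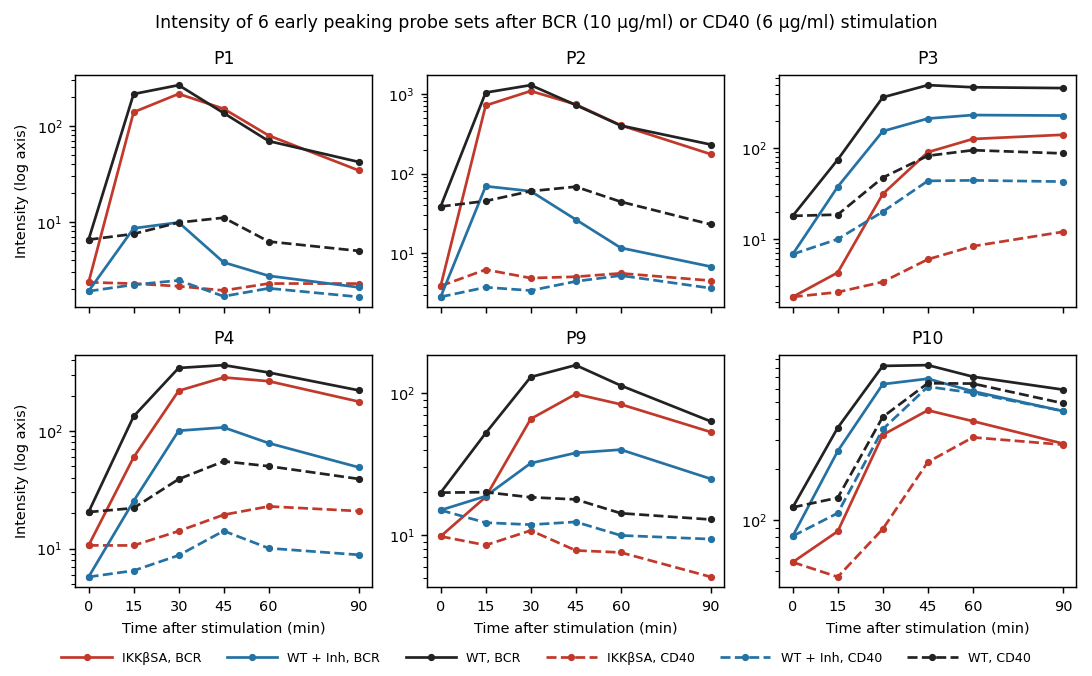
Intensity (log axis) of 6 members, P1 to P4, P9 and P10, against time after stimulation in min; red lines are IKKβSA, blue WT + Inh and black WT cells, solid after 10 μg/ml anti-IgM and dashed after 6 μg/ml CD40L, with 1 column per point. For P1 and P2 the solid red line lies near the black one and the solid blue line far below both, while for P3 and P10 the solid red line is below the blue one.

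Whether the members also rose with IKKβ inactive or MEK inhibited was asked in IKKβSA and WT + Inh cells, each from its own 0 min column. Which kinase the response needs was not tested. The columns of these cells entered the choice of the members only through the mean intensity over all 53 columns. P38 was below the limit of 2.07 at 0 min, with 1.86 in IKKβSA, 1.77 in WT + Inh and 1.86 in WT cells. It passed through its stimulated columns, which include those of the courses tested here. P33 was below the limit at 0 min in IKKβSA (1.67) and WT + Inh cells (1.72) and just above it in WT cells (2.12). Both are kept in the counts below, and their calls are not independent of the choice. The BCR course of IKKβSA cells called 49 of the 53 members higher and 0 lower, where 7.43% of all probe sets tested were called higher and 2.97% lower. In WT + Inh cells 45 were called higher and 0 lower, against backgrounds of 6.75% and 4.95%. In the late set the counts were 139 of 153 higher in IKKβSA cells and 125 higher and 1 lower in WT + Inh cells. The median of the members' largest changes was 1.93 in IKKβSA cells and 1.48 in WT + Inh cells, each from its own 0 min column, and over all probe sets tested the medians were −0.10 and 0.07. A rise was called in both cell conditions for 44 members and in neither for 3 (P41, P49 and P51), and the matching shares over all probe sets were not computed.

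Of those 3, P51 had 12.5 at 0 min and 10.1, 11.7, 10.98, 12.1 and 12.8 at 15 to 90 min in IKKβSA cells, 8.98 and then 10.3, 10.96, 12.2, 12.4 and 12.7 in WT + Inh cells, and 9.53 and then 10.2, 12.3, 19.3, 15.9 and 16.1 in WT cells. P25 was called in WT + Inh cells only (largest change 1.10, limma adjusted p = 0.000404), with 0.63 in IKKβSA cells (adjusted p = 0.0773). P16, P24, P37, P43 and P45 were called in IKKβSA cells and not in WT + Inh cells, and for P24, P37 and P43 the difference itself passed the test described below. P43 rose in IKKβSA cells alone of these 2, with 7.77 at 0 min and 8.72, 11.9, 15.7, 15.6 and 15.2 afterwards in IKKβSA cells against 5.52 and then 5.03, 5.12, 5.13, 4.57 and 5.27 in WT + Inh cells.

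In the WT course at 10 μg/ml the highest change lay at 15, 30 or 45 min for all 53 members by their choice, so the peak times there were not compared with those of other cells. The highest change lay at one of these times for 31 members in IKKβSA cells and for 27 in WT + Inh cells, with 22 and 26 highest at 60 or 90 min. Most of the sampled times are early and the share over all probe sets was not computed, so these counts alone do not show early peaking. At 15, 30, 45, 60 and 90 min the median change was 0.57, 1.33, 1.72, 1.73 and 1.58 in IKKβSA cells. It was 0.52, 1.13, 1.23, 1.29 and 1.047 for WT + Inh and 0.71, 1.53, 1.56, 1.18 and 1.15 for WT. The WT values at the early times are raised by the choice of the members and were not set against the others with a test.

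The starting levels also differed. At 0 min the IKKβSA column was below the WT column for 44 of the 53 members, with a median difference of −0.40, and the WT + Inh column for 46, with a median of −0.41. Over all probe sets tested these medians were 0.03 and 0.01, with 45.6% and 48.0% below WT. P2 had 3.89 in IKKβSA and 2.84 in WT + Inh cells against 38.6 in WT cells, and P3 had 2.30 and 6.81 against 18.0. A change measured from such a low start is large even where the level reached is not. P3 changed by 5.94 in IKKβSA cells, more than the 4.79 in WT cells, yet its level at 90 min was 141.0 in IKKβSA cells against 461 in WT cells. The WT 0 min column was used in choosing the members, so these differences from WT carry no test. As levels after 10 μg/ml anti-IgM, the median IKKβSA minus WT difference was −0.54, −0.49, −0.19, −0.07 and −0.14 from 15 to 90 min, and the median WT + Inh minus WT difference was −0.52, −0.84, −0.79, −0.51 and −0.50.

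IKKβSA and WT + Inh cells were then compared with each other, and the choice of the members had used their columns only in the mean intensity. The curves of change after 10 μg/ml anti-IgM differed for 16 members. The change was larger in IKKβSA cells for 15, where 0.904% of all probe sets tested were called in that direction, and smaller for 1, P3, where 0.104% were, the direction being the sign of the largest difference at any time. In the late set 34 were larger and 2 smaller. The median difference was 0.64 over the members, 0.50 over the late set and −0.09 over all probe sets tested. The members called with a larger change in IKKβSA cells were P1, P2, P5, P9, P11, P17, P19, P21, P24, P29, P36, P37, P42, P43 and P53.

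P1 and P2 set the upper end. P1 had 2.35 at 0 min and 139.2, 215.9, 151.0, 79.5 and 34.4 at 15 to 90 min in IKKβSA cells, against 1.90 and then 8.58, 9.88, 3.79, 2.74 and 2.08 in WT + Inh cells. P2 had 3.89 and then 713, 1082, 735, 403 and 174.7 in IKKβSA cells, against 2.84 and then 69.3, 60.1, 26.5, 11.7 and 6.81 in WT + Inh cells. For each of P1 and P2, every anti-IgM column in WT + Inh cells was below every anti-IgM column in IKKβSA cells. At 45 min the difference in change was 5.01 for P1 (SE of 4 columns 0.69) and 4.34 for P2 (SE 0.84). The limma test of the whole curves gave an adjusted p of 2.44e-05 for P1 and 0.00095 for P2. With 2 spline degrees of freedom in place of 3 the adjusted p was 0.30 and 0.50. P1 and P2 also rose in WT + Inh cells by the limma test of that course (adjusted p = 9.85e-05 and 1.05e-07). The 0 min level of P2 there lay within the range of the column medians, and that of P1 lay below it.

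P9 had the next largest difference, with 9.80 at 0 min and 18.6, 65.7, 98.4, 83.3 and 53.1 afterwards in IKKβSA cells against 15.0 and then 18.8, 32.1, 37.9, 39.9 and 24.9 in WT + Inh cells. Its difference in change was 1.99 at 45 min (SE 0.34), and the limma test of the whole curves gave an adjusted p of 0.000166. P5 differed by 1.59 at 45 min, with 110.3 in IKKβSA and 37.2 in WT + Inh cells at that time from nearly equal starts of 7.62 and 7.73. P42 kept climbing in IKKβSA cells, with 18.4 at 0 min and 18.6, 38.4, 52.3, 64.1 and 74.9 afterwards, against 17.3 and then 19.9, 28.0, 29.5, 33.3 and 32.9 in WT + Inh cells. P3 went the other way. Its change at 15 min was smaller in IKKβSA cells by 1.58 (SE 0.45), with 4.27 against 37.7 in WT + Inh cells, and at 45 min it was larger there by 0.33. The limma test of the whole curves gave an adjusted p of 0.00231 for P3, which does not test the 15 min difference by itself. At 60 and 90 min its change was also larger in IKKβSA cells, with 5.78 and 5.94 against 5.10 and 5.08 in WT + Inh cells. With 2 spline degrees of freedom 6 members were called, all 6 with a larger change in IKKβSA cells (background 0.864%).

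Because each change rests on a single 0 min column, the levels in the stimulated columns were also compared without it, an analysis added after the data had been seen. The level after 10 μg/ml anti-IgM was higher in IKKβSA cells than in WT + Inh cells for 30 members (background 10.8%), lower for 11 (background 10.3%) and not called for 12. The 11 members that were lower in IKKβSA cells were P3, P8, P10, P18, P22, P25, P27, P28, P39, P44 and P50. For all 11 of them, and for 26 of the 30, the difference at 0 min had the same sign. The share over all probe sets was not computed, and each sign rests on a single 0 min column per cell condition. Some of these differences were within the SE of 2 columns, with 0.02 for P47 (SE 0.21), 0.31 for P1 (SE 0.49) and 0.45 for P2 (SE 0.59). P14 had the largest mean difference after P1 and P2, 2.26 ± 0.12 (SE), with 6.41 at 0 min and 11.6, 31.9, 53.04, 62.6 and 44.1 in IKKβSA cells against 2.50 and then 4.24, 5.80, 9.99, 11.4 and 7.58 in WT + Inh cells. P10 was lower by 0.88 ± 0.10, with 56.5 and then 86.1, 320.4, 448, 386 and 284 in IKKβSA cells against 80.7 and then 256.9, 639, 688, 579.7 and 443 in WT + Inh cells. Its change did not differ by the test of curves (adjusted p = 0.70).

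**Figure D3:**
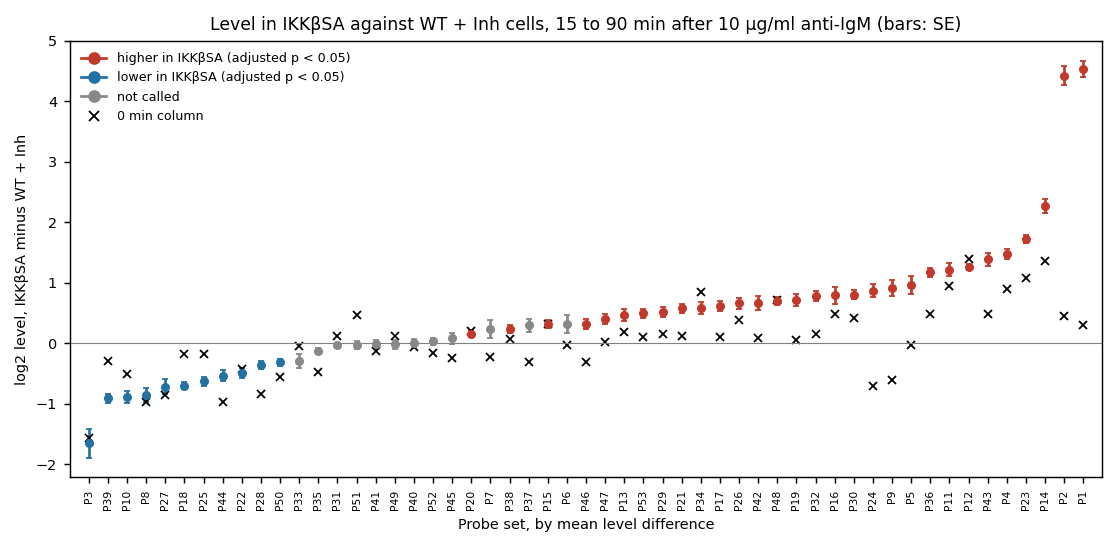
Mean level difference, IKKβSA minus WT + Inh, over the 5 stimulated columns of 10 μg/ml anti-IgM (log2, filled circles with SE) for each member, ordered by its size; red circles are called higher in IKKβSA cells, blue called lower and grey not called, and crosses give the difference of the 0 min columns. P1 and P2 lie above 4 with 0 min differences of 0.31 and 0.45, while the blue members have crosses below 0.

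CD40 stimulation moved far fewer members than anti-IgM in IKKβSA and WT + Inh cells. In IKKβSA cells 16 members were called higher and 5 lower after 6 μg/ml CD40L, where 1.96% and 1.49% of all probe sets tested were. In WT + Inh cells 15 were higher and 5 lower, against 4.24% and 2.75%. The counts depended on the times and columns in the fit. For IKKβSA cells 8 members were called without the 90 min columns (background 0.782% in either direction) and 34 with only the columns of the courses compared (6.36%). For WT + Inh cells 31 were called without the 15 min columns (10.2%) and 12 without the 45 min columns (3.8%). In both cell conditions 10 members were called higher and 4 lower, and 26 were called in neither. The shares of all probe sets called in both or in neither were not computed.

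P10 and P3 had the largest CD40 rises in both cell conditions, followed by P27 in IKKβSA cells and by P8 in WT + Inh cells. P10 had 46.3, 88.9, 221, 309 and 280.2 at 15 to 90 min of CD40L in IKKβSA cells after 56.5 at 0 min, 110.3, 346, 617, 567 and 443 in WT + Inh cells after 80.7, and 135.9, 409, 647, 644 and 493 in WT cells after 119.3. Its largest rise was 2.45 in IKKβSA cells (limma adjusted p = 4.85e-11) and 2.94 in WT + Inh cells (adjusted p = 7.09e-11). At 45 min its WT + Inh level was 688 after anti-IgM and 617 after CD40L. P3 had 2.60, 3.37, 5.97, 8.33 and 12.0 in IKKβSA cells, against 9.97, 20.0, 43.7, 44.3 and 43.0 in WT + Inh cells. WT cells had 18.6, 47.5, 82.8, 95.3 and 88.0. The rise of P3 was 2.38 in IKKβSA cells and 2.70 in WT + Inh cells, called in both, while its levels in IKKβSA cells stayed below those in WT + Inh cells at every time. P27 had 5.55, 6.57, 15.5, 17.6 and 18.4 in IKKβSA cells after 4.95 at 0 min, a rise of 1.90 (adjusted p = 2.08e-05), and P8 rose by 2.07 in WT + Inh cells (adjusted p = 3.34e-05) and by 1.59 in IKKβSA cells (adjusted p = 0.00183). P1 and P2 were not called after CD40L in either cell condition, P1 staying between 1.93 and 2.28 in IKKβSA cells and between 1.65 and 2.46 in WT + Inh cells.

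The 4 members called lower after CD40L in both cell conditions, P11, P12, P31 and P50, all rose after anti-IgM. The call takes the sign of the largest change, and not every column was below 0 min. P50 had 21.0, 22.5, 18.7, 15.2 and 10.2 at 15 to 90 min of CD40L in IKKβSA cells after 16.45 at 0 min. P31 had 169.6, 165.6, 140.5, 118.2 and 80.2 at 15 to 90 min of CD40L in IKKβSA cells after 169.0 at 0 min, and 177.7, 189.0, 175.6, 146.7 and 96.1 in WT + Inh cells after 155.9. In WT cells it had 245.8, 275.8, 236.4, 191.0 and 137.9 after 258.2. In all 3 cell conditions the 90 min column was the lowest, and the change there was −1.08 in IKKβSA cells and −0.70 in WT + Inh cells. Without the 90 min columns 1 member was called lower in IKKβSA cells (background 0.275%) and 1 in WT + Inh cells (background 1.25%), in place of 5 each. P11 was at −0.97 in IKKβSA cells and at −0.90 in WT + Inh cells at 90 min of CD40L.

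The change after anti-IgM was above that after CD40L for 47 members in IKKβSA cells (background 9.77%) and for 39 in WT + Inh cells (background 8.63%), and below it for 0 in either, where the backgrounds were 5.96% and 12.1%. In 38 members this held in both, without a share over all probe sets to set beside it. The median difference was 1.61 in IKKβSA cells and 0.95 in WT + Inh cells over the members, and 1.21 and 0.77 over the late set. The 6 members not called in IKKβSA cells were P25, P27, P41, P44, P49 and P51. P27, not called in WT + Inh cells either, had 20.3 after anti-IgM and 15.5 after CD40L at 45 min in IKKβSA cells, and 26.1 after anti-IgM and 30.1 after CD40L at that time in WT + Inh cells. The BCR and CD40 courses of a cell condition share its 0 min column, and the doses of the 2 stimuli cannot be matched.

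The question of how the members followed the dose was addressed in WT cells. With anti-IgM at 0.1, 1 and 10 μg/ml the median change of the members was 1.02, 1.40 and 1.53 at 30 min, and 0.33, 0.96 and 1.15 at 90 min. The number of members whose change reached 2-fold at some time was 32, 43 and 53 at 0.1, 1 and 10 μg/ml. The 10 μg/ml values are raised, and the 53 is fixed, by the choice of the members. All of these changes start from the 0 min column that the choice used. They are therefore given without a test, and the share of all probe sets that reached 2-fold was not computed. Leaving out the 10 μg/ml columns and the 0 min column, the level at 1 μg/ml was above that at 0.1 μg/ml for 35 members by limma's test with time as a factor (background 0.882%), and below it for 0 (background 0.77%). In the late set 43 of 153 were higher. The median difference was 0.49, or 1.41-fold, and the highest 2.32-fold. Without the trend of the error over intensity 13 members were called, all higher (background 0.0968%).

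P5 differed most between the 2 lower doses. It had 28.3, 65.7, 46.6, 49.4 and 42.4 at 15 to 90 min of 1 μg/ml against 19.6, 38.9, 17.9, 15.0 and 13.0 at 0.1 μg/ml, a mean difference of 1.22 ± 0.12 (SE, adjusted p = 3.36e-07). P4 had 123.9, 318, 243, 172.9 and 120.7 against 80.8, 187.4, 101.1, 52.9 and 38.6, a difference of 1.20 ± 0.10 (adjusted p = 1.85e-08). P1 had 212, 221, 73.7, 33.0 and 18.5 against 124.5, 140.0, 35.2, 13.5 and 5.47, a difference of 1.11 ± 0.10 (adjusted p = 5.20e-08). In these 3 members the doses lay closer together at 15 and 30 min than at 60 and 90 min. The same was seen in the medians over the members, where the 1 minus 0.1 μg/ml difference was 0.26, 0.33, 0.36, 0.60 and 0.60 from 15 to 90 min. Between 10 and 1 μg/ml the median difference was 0.01, 0.10, 0.23, 0.20 and 0.21, given without a test.

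**Figure D4:**
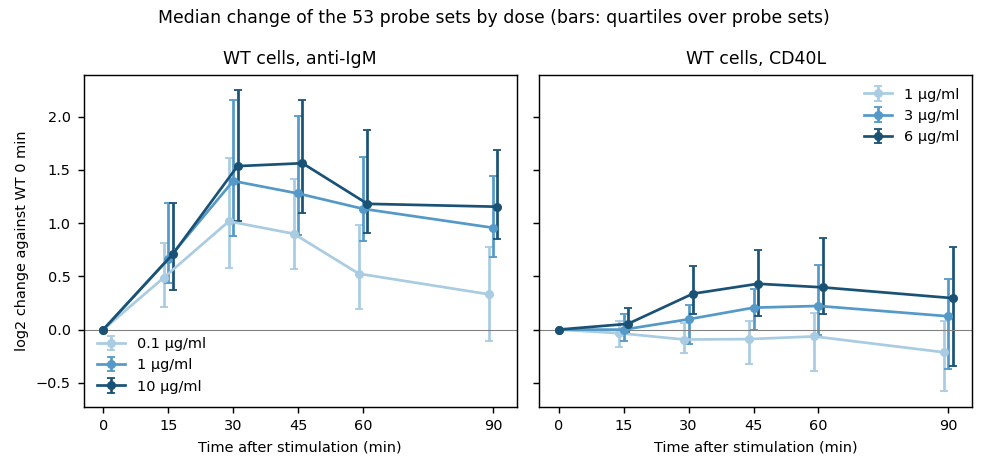
Median log2 change of the 53 members against the WT 0 min column (bars: quartiles over the members) with time after stimulation in min, for anti-IgM at 0.1, 1 and 10 μg/ml (left) and CD40L at 1, 3 and 6 μg/ml (right), 1 column per dose and time. At 90 min the median is 0.33 at 0.1 μg/ml and 1.15 at 10 μg/ml anti-IgM, and for CD40L it stays between −0.21 and 0.43 at every dose and time.

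For CD40L the level rose with dose in 38 members (background 2.04%) and fell in 0 (background 3.18%), tested as a slope over 1, 3 and 6 μg/ml in the 15 stimulated columns. In the late set 31 rose and 3 fell. The slopes were small, with a median of 0.17 log2 units per doubling of the dose, or 1.12-fold, and a highest value of 1.57-fold. They were largest for P10 (0.65 ± 0.06, adjusted p = 8.42e-06), P8 (0.65 ± 0.07, adjusted p = 3.76e-05) and P3 (0.64 ± 0.07, adjusted p = 3.69e-05), which were also the 3 with the largest CD40 rise in WT + Inh cells. P10 had 107.6, 109.5, 122.3, 150.2 and 151.0 at 15 to 90 min of 1 μg/ml, 114.3, 183.1, 376, 428 and 366 at 3 μg/ml and 135.9, 409, 647, 644 and 493 at 6 μg/ml. The number of members whose change reached 2-fold at some time was 0, 7 and 13 at 1, 3 and 6 μg/ml, without a share over all probe sets. At the lowest dose the median change was below 0 at each time. These changes start from the 0 min column that the choice used and were not tested. P2 had 30.6, 21.8, 16.3, 15.9 and 12.5 at 1 μg/ml against 38.6 at 0 min, and 45.2, 60.2, 68.4, 44.3 and 23.0 at 6 μg/ml, so it ended below its start at either dose while its slope with dose was 0.48 ± 0.06. Without the trend of the error over intensity 25 members were called, all with a level that rose with dose (background 0.376%). Each dose is 1 course, so the effect of a dose and that of its course cannot be told apart. Members called in both dose tests numbered 28, and 8 were called in neither, and the overlap over all probe sets was not computed.

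A level higher early than late was tested in WT columns that the choice had used only in the mean intensity. The test took the mean level at 15, 30 and 45 min minus the level at 90 min. It used no 0 min column, so it cannot tell a peak from a fall below the starting level. At 0.1 and 1 μg/ml anti-IgM, 27 members were higher early (background 4.26%) and 5 were higher late (background 2.79%). In the late set 0 were higher early and 111 higher late. The median difference was 0.37 over the members, −0.64 over the late set and −0.02 over all probe sets tested. Set against 60 min in place of 90 min, 14 members were higher early (background 2.87%) and 5 higher late (1.58%), and without the trend of the error 16 were higher early (2.08%) and 3 higher late (0.945%). Without the 15 min columns 35 were higher early (3.25%) and 1 higher late (1.29%). The largest values belonged to P1 (3.50 ± 0.13, adjusted p = 1.25e-16) and P2 (3.03 ± 0.07), followed by P11 (1.53), P31 (1.21), P13 (1.20), P4 (1.20) and P32 (1.09). P11 had 351, 408, 139.5, 95.4 and 86.2 at 15 to 90 min of 0.1 μg/ml and 467, 618, 266, 183.2 and 160.4 at 1 μg/ml, after 146.3 at 0 min.

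The 5 members that were higher late at the lower doses were P3, P39, P44, P48 and P51. P39 had 5.47, 10.9, 14.3, 17.4 and 14.7 at 0.1 μg/ml and 5.29, 9.45, 15.8, 20.3 and 17.7 at 1 μg/ml, so it was highest at 60 min in both, and at 10 μg/ml it had 6.39, 9.43, 15.2, 14.2 and 13.9. P3 had 44.2, 175.3, 189.4, 156.0 and 132.7 at 0.1 μg/ml and 87.1, 334, 362, 353 and 346 at 1 μg/ml. In both members the 15 min column was the lowest of each course. The number of members highest at 15, 30 or 45 min was 47 at 0.1 μg/ml and 44 at 1 μg/ml, without a share over all probe sets to set beside it. Less of the change was left at low dose, with a median of 22.1%, 64.1% and 72.1% of the highest change left at 90 min for 0.1, 1 and 10 μg/ml. The IKKβSA course kept 85.6% and the WT + Inh course 79.5%. The choice of the members placed the maximum of the WT course at 10 μg/ml at 15, 30 or 45 min, which lowers its share. The shares also hold members that did not rise, such as P43 in WT + Inh cells, counted at 100% with a highest change of −0.07. These shares were not tested against each other.

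After CD40L, over the 3 doses, 17 members were higher early (background 3.49%) and 12 higher late (background 7.19%), with 7 and 64 in the late set. Set against 60 min, 6 members were higher early (background 0.677%) and 13 higher late (2.36%). Members higher early after both stimuli numbered 15 and members higher late after both 4, and none was called in opposite directions. No share over all probe sets was computed for these overlaps. P2 (0.97), P11 (0.83) and P31 (0.75) were among the highest and P39 (−0.93), P44 (−0.85) and P3 (−0.66) the lowest. For P2, P11 and P31 the late level after CD40L lay below that at 0 min, as given above for P2 and P31. P11 had 61.7 at 90 min of 6 μg/ml against 146.3 at 0 min.

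**Figure D5:**
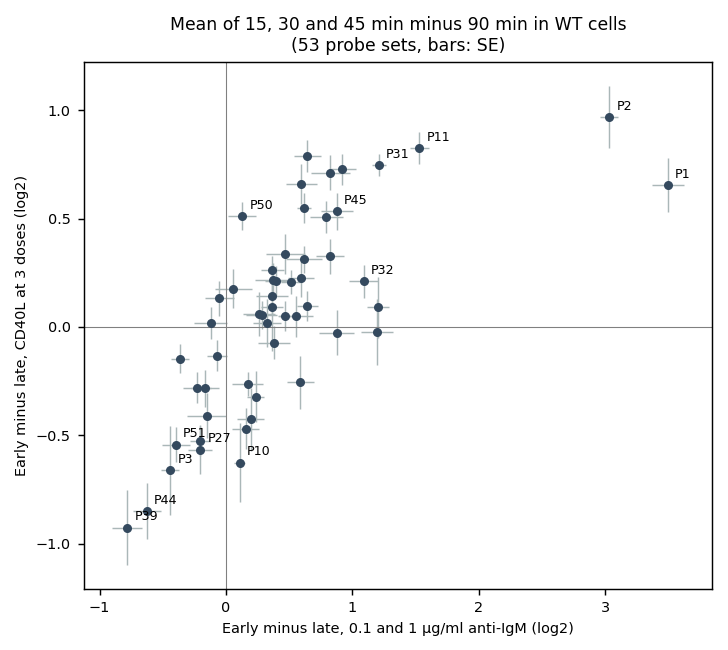
Mean level at 15, 30 and 45 min minus the level at 90 min (log2, bars: SE) of each member in WT cells, over the 0.1 and 1 μg/ml anti-IgM courses (horizontal) and over the 3 CD40L courses (vertical); the grey lines mark 0. P1 and P2 lie far to the right at 3.50 and 3.03, and P39, P44, P3 and P51 lie below 0 on both axes.

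Members also differed in how closely they moved together. Over the 22 IKKβSA and WT + Inh columns, the correlation of log2 intensity between pairs of members had a median of 0.63 and lay between −0.44 and 0.99, and 89 of 1378 pairs were above 0.9. The 2 probe sets of the whole table most like P1 over all 53 columns were P2 (Pearson r = 0.98) and P11 (0.90), and those most like P2 were P1 and P20 (0.90). The pair most like P3 were P8 (0.96) and P18 (0.92), both of which, like P3, were lower in IKKβSA than in WT + Inh cells after anti-IgM. These correlations include the columns that chose the members and describe likeness only, since the columns share cells and stimuli. P18 had 47.4 at 0 min and 45.8, 74.9, 97.6, 102.6 and 108.7 after anti-IgM in IKKβSA cells, against 53.5 and then 68.7, 147.0, 179.4, 154.9 and 152.3 in WT + Inh cells.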

How the data were processed

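The authors deposited 1 table of linear intensity values, for which the submitters' processing notes name RMA without a version. Each column combines 2 biological replicates, in a way not given in the sources used here. From these deposited intensities log2 values were computed with no pseudocount, and 11495 probe sets with a geometric mean intensity of 2.07 or less were not tested. Fits were made in R 4.3.3 with limma 3.58.1 and its error trend over intensity. The curve fit had 53 columns, a natural cubic spline of time per course (knots at 25 and 50 min, boundaries at 0 and 90 min), an intercept per cell condition, 33 parameters and 20 residual degrees of freedom, and courses were tested with the moderated F-test of 3 spline coefficients. The direction of a call is the sign of the largest difference in the columns. Dose and early minus late fits used stimulated WT columns with factors. The dose test over 10 anti-IgM columns had 4 residual degrees of freedom and that over 15 CD40L columns had 9. All fits borrow the error from other probe sets. The study's methods name no test behind its FDR, so none was repeated. The steps were also run on simulated data with independent errors in each column, so columns of a course that deviate together were not covered.

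The members, comparisons and lists were chosen with earlier results of these data known. Members described singly were the 10 with the largest change, any highest at 15 min and the limits of the choice. The 3 most extreme were taken for the share left at 90 min and for the IKKβSA against WT + Inh comparison. They were also taken for the dose tests and for the CD40 rises in those cells. Other members were picked after their values were seen. The pairing of IDs was checked with 32 probe set IDs that the study lists for its fastest rising cluster. All 32 were in the table and 0 were members, and the rows under them had a median largest change of 0.01 against 0.12 over all rows. Alternatives were other filters, pseudocounts of 4 and 16, centring of columns, no error trend, 2 spline degrees of freedom, fewer columns and each time left out. The precision is limited by the number of arrays.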

Additional observations from a re-analysis of the deposited data

Results flagged for a closer look

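The response to 10 μg/ml anti-IgM differed between IKKβSA and WT + Inh cells for 16 of the 53 members by the test of the difference in curves. It also differed for 36 of the 153 probe sets of the late set and for 1.01% of all probe sets tested. With 2 spline degrees of freedom P1 and P2 were not called. At 45 min the change in IKKβSA cells was larger by 5.01 log2 units for P1, by 4.34 for P2 and by 1.99 for P9. P1 and P2 were dim at 0 min in both cell conditions, with 2.35 and 3.89 in IKKβSA against 1.90 and 2.84 in WT + Inh cells, and their stimulated levels differed by 4.54 and 4.42 without the 0 min columns. P9 started lower in IKKβSA cells, at 9.80 against 15.0, and its stimulated level was higher there by 0.91 ± 0.13 (SE). Each 0 min level is a single column.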

How the results depend on the processing

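Of 130 counts of members or calls under other settings, 118 stayed within 1.5 times the value given above. In 171 comparisons no effect changed direction, but these covered only members picked for the largest called effects in some of the tests. P3 in the BCR comparison of IKKβSA and WT + Inh cells was not among them, and its direction there came from its 15 min column. With log2 of intensity + 16, 29 probe sets met the limits in place of 53, and all 29 were members. Without the error trend, 13 members were called between 1 and 0.1 μg/ml anti-IgM (background 0.0968% in either direction) and 25 for the CD40L dose (0.603%). For early minus late at the lower anti-IgM doses 19 were called (3.03%). With 2 spline degrees of freedom, 6 were called between IKKβSA and WT + Inh cells in the BCR course (background 0.945%). P1 and P2 lost their calls there (adjusted p of 0.30 and 0.50). With levels in place of changes, added after the data had been seen, 41 were called in that comparison. The background was then 21.2%, against 1.01% for changes. The CD40 course of IKKβSA cells called 34 members with only the columns of the courses compared (background 6.36%) and 8 without 90 min (0.782%). That of WT + Inh cells called 31 without 15 min (10.2%) and 12 without 45 min (3.8%). Without 90 min, early minus late called 19 at the lower anti-IgM doses (background 4.46%) and 19 for CD40L (3.03%). Without 15 min, 1 member in place of 5 was higher late at the lower anti-IgM doses (background 1.29%). Without 90 min 1 in place of 5 fell after CD40L in each of IKKβSA (0.275%) and WT + Inh cells (1.25%). The cause of these shifts was not tested. No paired analysis was possible because each column is a single condition and time that combines its replicates. With 1 column per time the deviations from the fits stand in for error, and they hold misfit as well as noise. Columns of a course that deviate together would pass as a response.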
